A study of Mus musculus with 12 samples.

Results

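The genes of oxidative phosphorylation were examined in tissue of the ventral tegmental area (VTA), part of the midbrain dopamine system. They were taken as every probe set listed with exactly 1 gene whose symbol begins with Nduf, Sdha, Sdhb, Sdhc, Sdhd, Uqcr, Cox4i, Cox5, Cox6, Cox7, Cox8 or Atp5. This rule gave 185 of the 45037 tested probe sets and 94 of the 18193 genes named on the array. By complex, 34 genes belonged to complex I, 4 to complex II, 8 to complex III, 19 to complex IV and 17 to complex V, and 12 were assembly factors (Ndufaf and Sdhaf genes). Ndufa4 and Ndufa4l2 were counted with complex IV, where the Ndufa4 protein is found.

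RNA came from wild-type mice of the strain C57BL/6 (C57 per the labels), at 2, 10 and 18 months of age, with no treatment at any age. Each age had 4 arrays (Affymetrix mouse expression arrays), and each array held RNA pooled from the VTA of 5 mice, so the spread described here is between pools. Young arrays 3 and 4 were nearly the same and were averaged, so that 2 months was represented by 3 samples and each later age by 4. All values are log2 expression values normalised by the authors with RMA, a change is a difference of these values, and an error of a change is its standard error (SE).

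Oxidative phosphorylation takes place in the inner mitochondrial membrane. Complex I takes electrons from NADH and complex II from succinate, complex III passes them to cytochrome c, complex IV passes them to oxygen, and complex V (ATP synthase) makes ATP from the proton gradient that complexes I, III and IV build up. A few subunits are encoded by mitochondrial DNA and all others, including the genes here, by nuclear DNA, and neurons depend strongly on this pathway for ion pumping and transmission.

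Several features of the arrays moved with age or set single arrays apart. Young arrays 3 and 4 correlated at r = 0.998 with 1 probe set more than 1 apart on the log2 scale, against r of 0.967 to 0.996 and 85 to 4905 probe sets in the 17 other pairs of the same age. For the Actb and Gapdh controls, 3′ minus 5′ signal, a sign of RNA length after amplification, averaged 3.47 ± 0.17 (SD, n = 3) in the young samples. It averaged 2.15 ± 0.34 (SD, n = 4) in those of 10 months and 1.98 ± 0.24 (SD, n = 4) in those of 18 months. Both later ages lay below 2 months without overlap (exact two-sided permutation test, p = 0.0286 each, the smallest value this design allows). Principal component 1, with 43.8% of the variance, set array 2 at 2 months, array 3 at 10 months and arrays 2 and 4 at 18 months on its positive side. The mean of the poly-A controls added to the RNA was 6.06 ± 0.09 (SD, n = 3), 6.38 ± 0.09 (SD, n = 4) and 6.90 ± 0.33 (SD, n = 4) in order of age, with no overlap between ages (exact two-sided permutation test, p = 0.0286 for each pair). All 8 markers of dopaminergic neurons were above the lower quartile of probe set means and 1 (Th) was higher and 1 (En1) lower at 18 months. Of 62 measured cell type markers, 10 were higher and 3 lower at 18 than at 2 months, against 5.77% and 3.05% of all genes. Among the higher ones were 4 of the 8 microglial markers (their mean level ran from 8.04 to 8.33 over the young samples and from 8.66 to 8.99 over those of 18 months). General neuronal markers had 3 of 9 higher and 1 lower, with mean levels from 11.7 to 12.1 and from 12.2 to 12.5. At 10 against 2 months 2 of the 62 markers were higher, Th and P2ry12, and 0 lower, against 1% and 0.484% of all genes. The part of the poly-A controls and of the cell type markers in the results was not tested, and counts with the 3′ minus 5′ signal as a covariate and without the arrays set apart are given further on. In tissue RNA, fewer cells of a type and less RNA per cell cannot be told apart.

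The first question was which of the genes differed between 2 and 18 months. Calls required a change above 1.3-fold together with an adjusted p below 0.05. Of the 185 probe sets, 8 were higher and 3 lower at 18 months. These are shares of 4.32% and 1.62%, against 4.55% and 2.91% of all probe sets, so they lay near or below those of the whole array. With each array centred on its median, 8 were higher and 0 lower (5.61% and 2.06% of all). Without young array 1 the count was 1 (Sdhd), where 0.653% of all were higher and 0.286% lower. Without array 2 or array 3 at 18 months it was 6 each, all higher (2.64% and 2.87% of all higher, 1.68% and 1.43% lower). Without array 3 at 10 months it was 19, of which 10 were higher and 9 lower (6.96% and 4.87% of all). With each gene represented by its brightest probe set (the highest mean over the samples), 5 of 94 genes rose (5.32%, against 5.77% of all genes) and 3 fell (3.19%, against 3.05%). The genes that rose were Atp5b, Sdhd, Ndufs1, Ndufs3 and Ndufs4, and those that fell were Uqcrc2, Cox7a2l and Ndufaf2. The median change of the 94 genes was −0.12 and 33 had a positive change, beside a median of −0.02 over all 18193 genes. Without overlap between the samples of both ages, 12 genes were higher (12.8%, against 13.3% of all genes) and 18 lower (19.1%, against 12.1%). Of the 185 probe sets, 175 lay above the lower quartile of all probe set means, and the remaining 10 were kept in every count.

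The complexes differed in where their genes lay. At 18 against 2 months the median change was −0.26 in complex I, 0.41 in complex II, −0.12 in complex III, −0.07 in complex IV and −0.06 in complex V. Assembly factors had a median of 0.22. A positive change was found in 7 of 34 genes of complex I, 4 of 4 of complex II, 3 of 8 of complex III, 4 of 19 of complex IV, 7 of 17 of complex V and 8 of 12 assembly factors. With the 3′ minus 5′ covariate described later the medians were −0.08, 0.15, 0.02, −0.01 and −0.05 from complex I to complex V, and without the 4 arrays set apart −0.07, 0.59, 0.25, 0.01 and 0.12. The sign of complex III was thus not kept in either, and those of complexes IV and V were not kept without the 4 arrays. Some of these values lay close to 0, and with the covariate the median SE of complex III genes was 0.60. Arrays 2 and 4 at 18 months were low in most of the genes, so leaving them out raises these medians by construction. Over all its probe sets complex I had a median of −0.17. These medians are descriptions, and no test was made between complexes. The mean deviation of complex I genes from their own averages was −0.02 to 0.14 over the young samples. Over the samples of 18 months it was −0.29 to 0.12, so these ages overlapped. In complexes III, IV and V they overlapped as well, and in complex II they did not.

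**Figure D1:**
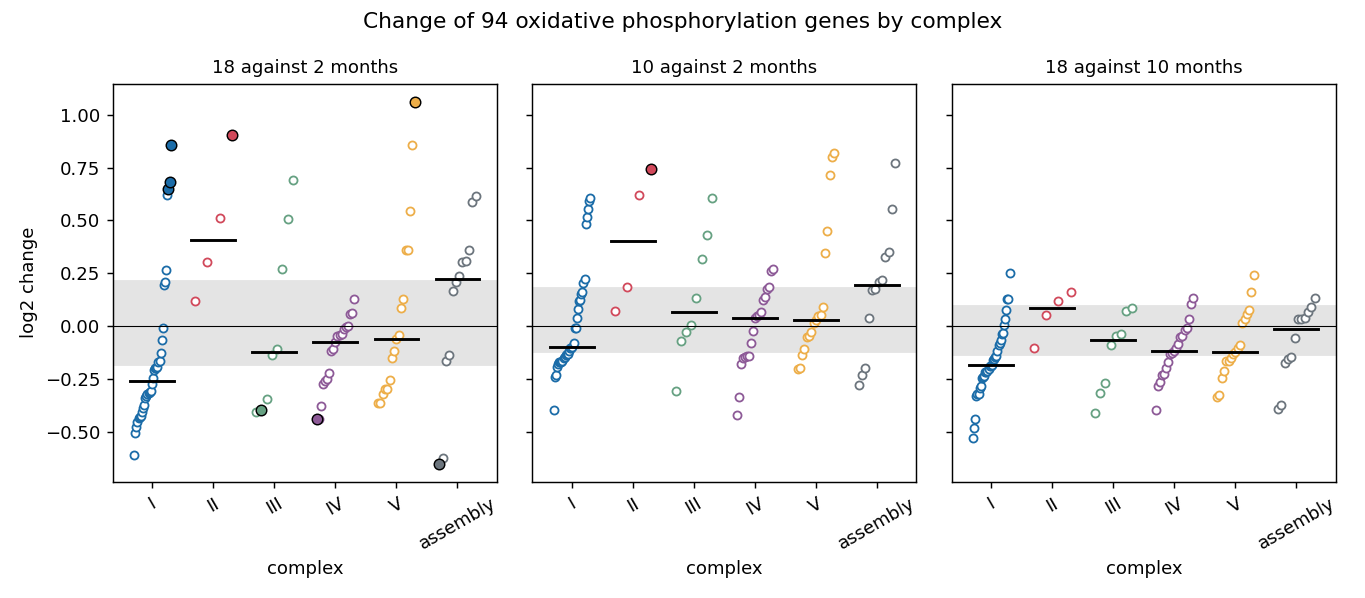
Log2 change of each of the 94 genes at its brightest probe set (vertical axis), by complex (horizontal axis), in the 3 age comparisons. Each circle is a gene, filled circles were called, horizontal bars are medians of a complex, and the grey band holds the middle part (lower to upper quartile) of all 18193 genes; at 18 against 2 months complex I has its median at −0.26 and complex II at 0.41.

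Complex I was split between a few genes that rose and a majority with negative changes. Ndufs1, Ndufs3 and Ndufs4 were called higher, and no gene of the complex was called lower. Ndufs1, the largest core subunit and a carrier of iron-sulphur clusters, had values of 10.41, 11.07 and 10.88 at 2 months, 11.57, 11.10, 11.61 and 11.29 at 10 months and 11.63, 11.59, 11.54 and 11.81 at 18 months. All later samples lay above the young ones. The change at 18 months was 0.86 ± 0.17 (1.81-fold, limma adjusted p = 0.015).

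Ndufs3, a core subunit of the arm that takes up electrons, had values of 11.02, 11.88 and 11.54 at 2 months, 12.11, 11.94, 12.07 and 12.02 at 10 months and 12.11, 12.24, 12.22 and 12.08 at 18 months. Young array 2 was close to the later samples, and the young samples overlapped with neither later age. The change was 0.68 ± 0.16 (limma adjusted p = 0.030). Ndufs4, an accessory subunit whose loss causes a known mitochondrial disease, had values of 9.81, 10.31 and 10.04 at 2 months, 10.57, 10.60, 10.77 and 10.35 at 10 months and 10.68, 10.71, 10.60 and 10.81 at 18 months. Again the young samples were the lowest, with a change of 0.65 ± 0.14 at 18 months (limma adjusted p = 0.018). Its other probe sets changed by 0.66 ± 0.23 and −0.68 ± 0.24, and by 0.04 ± 0.14 for one below the lower quartile of all probe set means, none of them called. The mean of all its probe sets changed by 0.17 ± 0.13 (limma adjusted p = 0.51).

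The 6 measured core subunits, which carry out electron transfer, had a median change of 0.005, with 3 positive. The 28 accessory subunits, which surround the core, had a median of −0.31, with 4 positive, and −0.09 with the covariate. Ndufv1, which binds NADH, changed by 0.21 ± 0.13 and was not called (limma adjusted p = 0.381). Among genes chosen after their values were seen, Ndufb7, an accessory subunit of the membrane arm, had the most negative change of the complex, −0.61 ± 0.31 (limma adjusted p = 0.263). Ndufa5, another accessory subunit, had a smaller change of −0.44 ± 0.14 with a lower p (limma adjusted p = 0.075). Its values were 13.11, 13.11 and 12.95 at 2 months and 12.78, 12.53, 12.61 and 12.56 at 18 months, without overlap.

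Complex II, the succinate dehydrogenase that also serves the citric acid cycle, was the only complex with a positive change in every gene, and it has only 4. Sdhd, one of the membrane anchors, rose at both later ages. Its values were 10.32, 10.96 and 10.74 at 2 months, 11.42, 11.29, 11.42 and 11.54 at 10 months and 11.71, 11.53, 11.61 and 11.46 at 18 months. The young samples lay below all the others. The change was 0.91 ± 0.14 at 18 months (1.87-fold, limma adjusted p = 0.0066) and 0.74 ± 0.14 at 10 months (1.67-fold, limma adjusted p = 0.041). A second probe set of Sdhd had values of 8.91, 8.66 and 8.73 at 2 months and 8.67, 8.43, 8.14 and 8.33 at 18 months. It went the other way by −0.37 ± 0.15 and was not called (limma adjusted p = 0.155). With the mean of both probe sets the change of Sdhd was 0.27 ± 0.11 at 18 months and was no longer called (limma adjusted p = 0.176).

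Sdhb, the iron-sulphur subunit, had values of 11.48, 11.71 and 12.03 at 2 months, 12.63, 12.48, 11.86 and 12.48 at 10 months and 12.40, 12.01, 12.57 and 12.05 at 18 months. The ages overlapped, and the change of 0.51 ± 0.21 at 18 months was not called (limma adjusted p = 0.159). Sdhc, the other membrane anchor, changed by 0.30 ± 0.12 and was not called (limma adjusted p = 0.144). Sdha, the flavoprotein that oxidises succinate, changed by 0.12 ± 0.13 at its brightest probe set and by 0.60 ± 0.18 at another, neither called (limma adjusted p = 0.622 and 0.068). A further one changed by −0.04 ± 0.26. The mean deviation of the 4 genes from their own averages was −0.51, −0.21 and −0.22 in the young samples, between 0.02 and 0.18 in those of 10 months and between 0.07 and 0.22 in those of 18 months. The young samples were thus below both later ages for this complex. The same held for the 40 proteasome subunit genes, with −0.25 to −0.04 in the young samples and −0.03 to 0.14 in the later ones. Over all 9 probe sets of complex II the median change at 18 months was 0.12.

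Sequences just before the start of these genes were examined for short motifs, among them the palindrome read by NRF1, a regulator of nuclear genes for mitochondria. The called Sdhd and several other members hold this palindrome. In the 250 bases before the start, GCGCA followed after any 1 base by GCGC (either strand) was found in 13 of 83 promoters of 78 member genes with an entry (15.7%), against 3.74% of all 32851 promoters in the RefSeq table and 6.02% of promoters of genes named on the array. The ETS-type motif CCGGAAG (either strand) was found in 19.3%, against 6.91% and 10.1%. CCAAT was found in 41% against 33.8% and 34.7%, and TATAAA in 9.64% against 12.4% and 8.81%. No motif contains another of them. The windows below are from RefSeq (GRCm38.p6), written 5′ to 3′ on the gene's strand with the NRF1 palindrome in capitals, and show 3 genes with a positive change, Sdha with 3 matches of which 2 are given, and 2 genes with a negative change.
Sdhd, chr9:50603909-50603938, minus strand: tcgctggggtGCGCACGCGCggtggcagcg
Sdha, chr13:74350276-74350305, minus strand: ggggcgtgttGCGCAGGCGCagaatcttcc
Sdha, chr13:74350319-74350348, minus strand: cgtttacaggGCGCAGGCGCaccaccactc
Atp5c1, chr2:10080433-10080459, minus strand: ctgagctcccGCGCACGCGCactgagt
Atp5g2, chr15:102671070-102671099, minus strand: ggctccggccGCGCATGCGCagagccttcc
Ndufa5, chr6:24527697-24527726, minus strand: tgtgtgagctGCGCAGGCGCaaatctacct
Atp5k, chr5:108434430-108434459, minus strand: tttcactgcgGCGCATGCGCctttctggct
The match in Sdhd lies 79 bases before its start. Of the genes shown, Sdhd was called, Atp5c1 changed by 0.36 ± 0.12, Atp5g2 by 0.86 ± 0.44, Ndufa5 by −0.44 ± 0.14 and Atp5k by −0.36 ± 0.25 at 18 months. Genes with the palindrome therefore lay on both sides of 0, and a match is a description of the letters only.

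Complex III showed opposite signs within a single gene. Uqcrc2, a core protein of the matrix side, had values of 12.98, 12.80 and 12.86 at 2 months, 12.55, 12.62, 12.55 and 12.56 at 10 months and 12.52, 12.44, 12.48 and 12.50 at 18 months at its brightest probe set. It fell there by 0.40 on the log2 scale (SE 0.09, 1.32-fold, limma adjusted p = 0.022), and the ages did not overlap. Its other probe set had values of 10.97, 11.81 and 11.30 at 2 months and 11.87, 11.88, 11.99 and 12.05 at 18 months. There the change was 0.59 ± 0.19 in the other direction and was not called (limma adjusted p = 0.089). The direction for Uqcrc2 therefore depended on the probe set.

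Uqcrc1, the other core protein, had values of 11.59, 11.75 and 12.21 at 2 months, 12.79, 12.51, 11.87 and 12.65 at 10 months and 12.57, 12.30, 12.93 and 12.36 at 18 months. All samples at 18 months lay above the young ones, and the change of 0.69 ± 0.23 was not called (limma adjusted p = 0.097). Without array 3 at 10 months, which leaves the change itself as it was, its SE was 0.18 and it was called (limma adjusted p = 0.030). Uqcrfs1, the Rieske iron-sulphur protein, changed by 0.51 ± 0.18 and was not called (limma adjusted p = 0.115).

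Complex IV, cytochrome c oxidase, had the narrowest range of changes, from −0.44 to 0.13 in its 19 genes. Cox7a2l, a protein linked to the assembly of respiratory supercomplexes, had values of 13.38, 13.70 and 13.25 at 2 months, 13.00, 13.20, 13.04 and 13.19 at 10 months and 13.01, 13.09, 12.98 and 12.95 at 18 months. The young samples were the highest, and it fell by 0.44 on the log2 scale (SE 0.12, 1.36-fold, limma adjusted p = 0.044). This call stood close to the threshold and was kept in 6 of 22 alternative settings. Its other probe sets changed by −0.32 ± 0.12 and −0.03 ± 0.13 and were not called.

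The genes of complex IV that exist as tissue isoforms were not called in any comparison at their brightest probe set. Cox4i1, the common isoform of a regulatory subunit, changed by 0.13 ± 0.15 and Cox4i2, known from lung, by 0.06 ± 0.10. Cox6a1 changed by −0.25 ± 0.22 and Cox6a2, its heart and muscle form, by −0.27 ± 0.16. Cox7a1, also a heart and muscle form, changed by −0.26 ± 0.37 and Cox7a2 by 0.002 ± 0.20. For the next pair, Cox8a changed by −0.04 ± 0.31 and Cox8b by −0.11 ± 0.16. Ndufa4 changed by −0.07 ± 0.12, its relative Ndufa4l2, known as a hypoxia-induced gene, by −0.22 ± 0.24, and Cox5a by −0.12 ± 0.13. Another probe set of Cox5a changed by 0.27 ± 0.16 (limma adjusted p = 0.340) and one of Cox6a2 by 0.01 ± 0.19, neither called. A probe set of Cox7c, a small structural subunit, was called higher by 0.90 ± 0.16 (limma adjusted p = 0.0095), but its mean value of 3.90 was below the lower quartile of all probe set means (4.57). The brightest probe set of Cox7c changed by −0.04 ± 0.16.

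Complex V held the largest change of a gene at its brightest probe set. Atp5b, the catalytic beta subunit, had values of 12.38, 13.22 and 13.01 at 2 months, 13.85, 13.28, 14.06 and 13.57 at 10 months and 13.79, 13.95, 13.88 and 14.11 at 18 months. Young array 1 was the lowest, array 2 at 10 months came close to the young samples, and 2 and 18 months did not overlap. It rose by 1.06 ± 0.21 (2.09-fold, limma adjusted p = 0.015). At 10 months the change was 0.82 ± 0.21 and was not called (limma adjusted p = 0.083).

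Atp5a1, the alpha subunit, changed by 0.13 ± 0.11 at its brightest probe set, which was not called (limma adjusted p = 0.557). A second one had values of 12.21, 12.97 and 12.72 at 2 months and 13.24, 13.44, 13.43 and 13.59 at 18 months and was called higher, by 0.79 ± 0.18 (limma adjusted p = 0.025). One more changed by −0.98 ± 0.31 and was not called (limma adjusted p = 0.076). The probe sets of Atp5a1 thus pointed both ways.

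Atp5pb, a subunit of the stalk that holds the enzyme together, also differed between probe sets. Its brightest one changed by −0.04 ± 0.12. Another had values of 9.81, 10.61 and 10.16 at 2 months, 10.94, 10.57, 11.33 and 10.49 at 10 months and 12.15, 11.14, 11.21 and 11.36 at 18 months, and was called higher by 1.27 ± 0.28 (2.41-fold, limma adjusted p = 0.022). Array 1 at 18 months was the highest there, and 2 and 18 months did not overlap.

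Atp5g1, Atp5g2 and Atp5g3 encode the same membrane ring subunit c, with different targeting sequences. Atp5g1 had values of 9.77, 10.06 and 10.41 at 2 months, 10.82, 11.00, 9.36 and 10.94 at 10 months and 11.27, 9.78, 10.98 and 9.75 at 18 months. Atp5g2 had values of 8.56, 9.12 and 9.52, then 10.12, 10.35, 8.86 and 10.15, then 10.81, 9.43, 10.35 and 9.11 at the same ages. In both genes array 3 at 10 months and arrays 2 and 4 at 18 months stood far below the others of their age and overlapped the young samples. The changes of 0.36 ± 0.45 and 0.86 ± 0.44 were not called (limma adjusted p = 0.685 and 0.271). A second probe set of Atp5g1 had values of 7.36, 6.90 and 7.42 at 2 months and 5.55, 6.67, 6.18 and 7.02 at 18 months, overlapped and changed the other way by −0.87 ± 0.29, also not called (limma adjusted p = 0.096). One of Atp5g2 below the lower quartile of probe set means changed by −0.05 ± 0.12. Atp5g3 stayed between 13.62 and 13.87 in every sample, with a change of 0.09 ± 0.09 that was not called (limma adjusted p = 0.602).

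Among assembly factors, which help to build complexes I and II and are not part of them, 1 of 12 was called. Ndufaf2, a complex I factor, had values of 9.23, 9.40 and 8.95 at 2 months, 8.86, 9.21, 8.72 and 8.89 at 10 months and 8.17, 8.66, 8.65 and 8.69 at 18 months. Its samples at 18 months were all below those at 2 months, and it fell by 0.65 on the log2 scale (SE 0.17, 1.57-fold, limma adjusted p = 0.038). Array 1 at 18 months was the lowest by far, and without it the change was −0.53 and no longer called (limma adjusted p = 0.075).

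**Figure D2:**
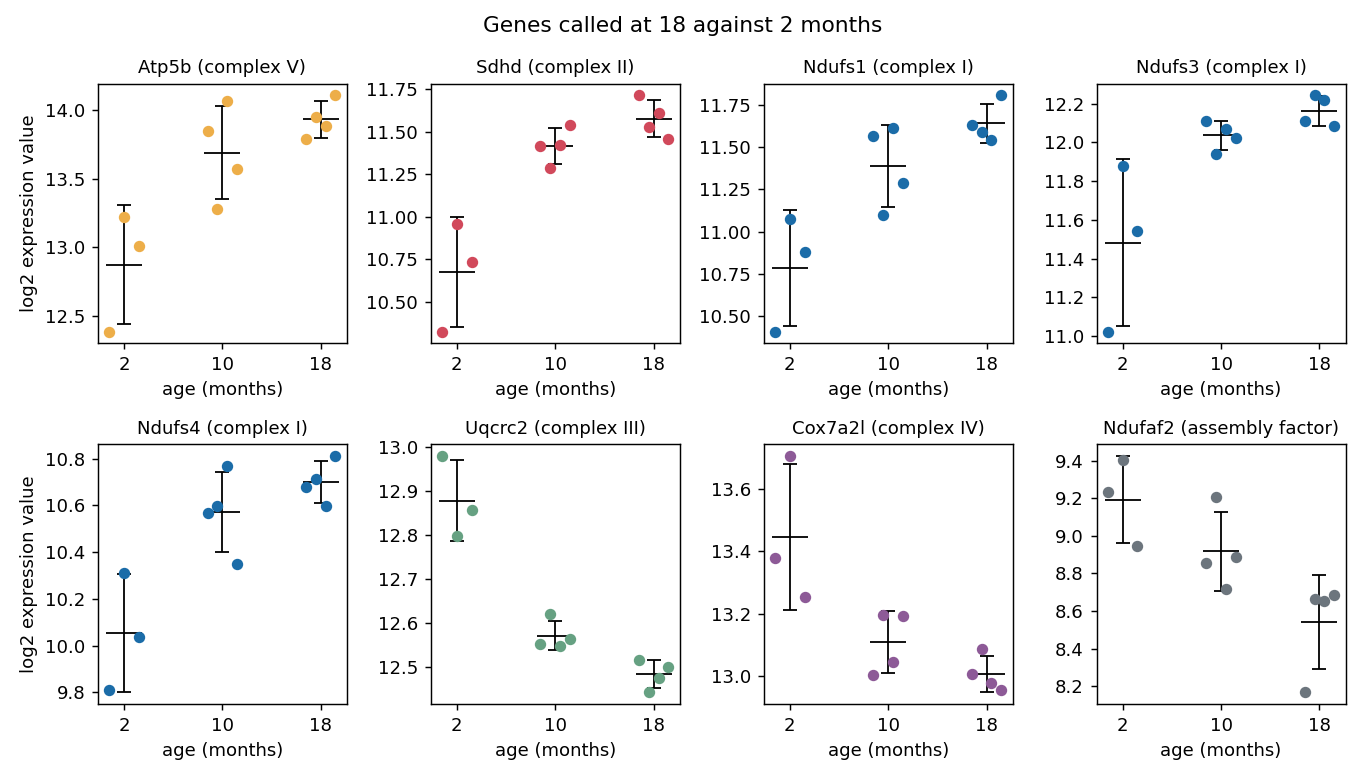
Log2 expression values (vertical axes, each with its own range) of the 8 genes called at 18 against 2 months at their brightest probe set, by age in months. Points are samples, and the bars give the mean and SD at n = 3, 4 and 4; Atp5b goes from 12.38 to 13.22 at 2 months to 13.79 to 14.11 at 18 months, and in each panel the ages 2 and 18 months do not overlap.

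The second question was when the differences appeared. At 10 against 2 months 1 of 185 probe sets was called, that of Sdhd (0.541%, against 0.837% of all probe sets), and 0 were called lower (0.524% of all). This call was lost in 14 of 22 alternative settings. Of the 94 genes, 9 were higher and 5 lower without overlap (9.57% and 5.32%, against 7.74% and 5.3% of all genes). The medians at 10 months were −0.10 in complex I, 0.40 in complex II, 0.07 in complex III, 0.04 in complex IV, 0.03 in complex V and 0.19 in assembly factors. This comparison and that at 18 months share the young samples.

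At 18 against 10 months limma called 0 of the 185 probe sets, against 0.0022% of all higher and 0% lower, and 3 had an unadjusted p under 0.05 (1.62%, against 5.06% of all). The median change of the 94 genes was −0.13 with 26 positive (27.7%), beside −0.04 and 41.8% over all genes. Without overlap, 0 genes were higher and 3 lower (3.19%), against 1.36% and 1.43% of all genes. By complex the medians were −0.19, 0.08, −0.07, −0.12 and −0.12 from complex I to complex V. The test of unequal change, the change from 2 to 10 months minus that from 10 to 18 months, also called 0 probe sets in limma (0% of all), with 3 at an unadjusted p under 0.05 (1.62%, against 5.47% of all) and a lowest adjusted p of 0.898.

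The spread within an age was large and shared by most of the genes. At 10 months, array 3 had the lowest value in 75 of 94 genes (79.8%, against 51.6% of all genes). At 18 months, arrays 2 and 4 both lay below arrays 1 and 3 in 69 genes (73.4%, against 36.1%). Both patterns were found in 65 genes (69.1%, against 30.2%). These are 3 of the 4 arrays on the positive side of the first principal component, and they are described here without a test because they were picked out after the values were seen.

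The size of the gap differed by gene. At 10 months array 3 lay below the mean of the other arrays by a median difference of −0.55, and at 18 months the mean of arrays 2 and 4 differed from that of arrays 1 and 3 by −0.34. Over all genes these medians were −0.14 and −0.06. The widest gaps at 18 months were in Atp5l, a membrane subunit of complex V (−1.42), Atp5g1 (−1.36), Uqcrq, a small subunit of complex III (−1.35), and Ndufb2, an accessory subunit of complex I (−1.33). Atp5l had values of 11.17, 9.37, 10.39 and 9.35 at 18 months and of 10.53, 10.71, 8.99 and 10.57 at 10 months. The 76 mitochondrial ribosomal protein genes had like medians, of −0.72 and −0.46, and the 40 proteasome subunit genes lay at −0.19 and −0.05.

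**Figure D3:**
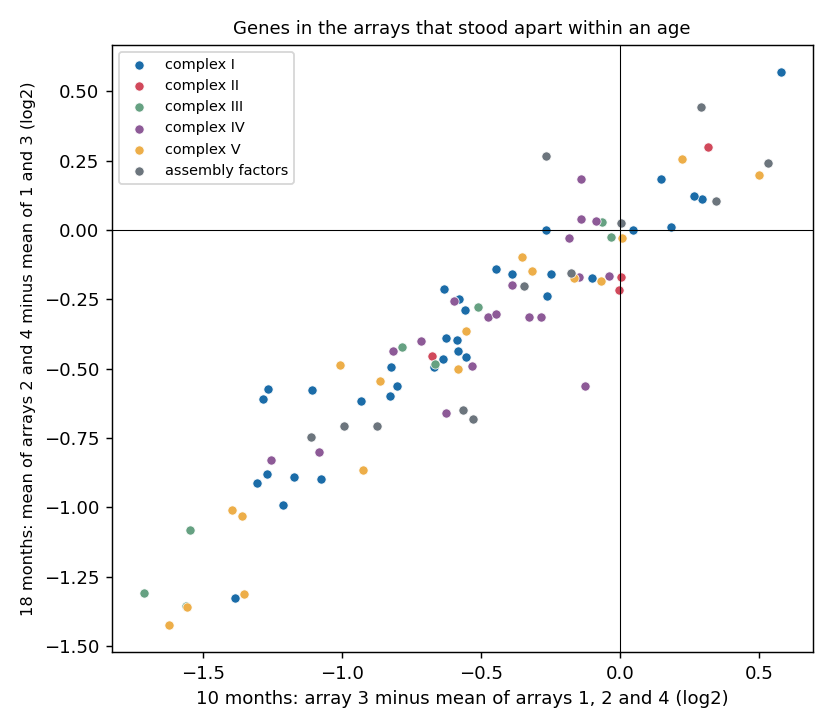
For each of the 94 genes, the difference between array 3 and the mean of the other arrays at 10 months (horizontal axis, log2) and the difference between arrays 2 and 4 and arrays 1 and 3 at 18 months (vertical axis, log2), coloured by complex. Most points lie in the lower left, with Atp5l at −1.62 and −1.42, and complex II genes lie near 0 or above at 10 months except Sdhb.

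By complex, the mean deviation of the genes in array 3 at 10 months was −0.38 in complex I, −0.56 in complex III, −0.29 in complex IV and −0.43 in complex V. The other arrays of that age lay between 0.14 and 0.31, 0.24 and 0.36, 0.04 and 0.28, and 0.20 and 0.31 in the same complexes. In complex II the array had 0.02, within the range of the others. The difference was therefore seen in the 4 larger complexes and in assembly factors (−0.16, against 0.12 to 0.19).

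**Figure D4:**
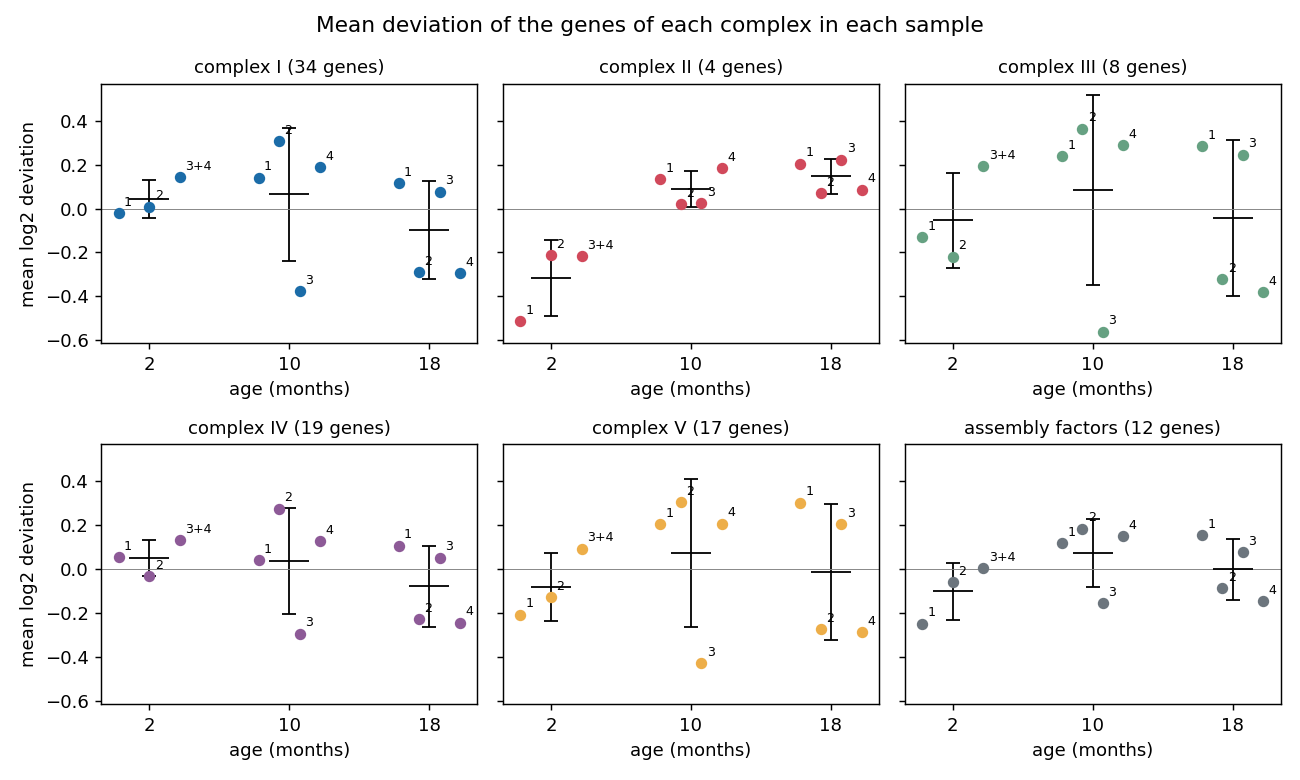
Mean deviation of the genes of each complex from their own averages (vertical axis, log2) in each sample, by age in months, with array numbers beside the points and mean and SD as bars (n = 3, 4 and 4). Array 3 at 10 months and arrays 2 and 4 at 18 months lie lowest in complexes I, III, IV and V, and in complex II the young samples (−0.51 to −0.21) lie below all later ones.

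The counts were taken again without the 4 arrays on the positive side of the component, a setting chosen after the data were seen that leaves 2, 3 and 2 samples. Arrays 2 and 4 at 18 months lay below arrays 1 and 3 in 69 of the 94 genes (73.4%, against 36.1% of all). Leaving them out therefore raised the changes of most members by construction, and the share of higher calls gives no support for a rise. In this setting 20 of 185 probe sets were higher at 18 than at 2 months (10.8%, against 4.03% of all probe sets) and 2 were lower (1.08%, against 3.55%). Of these 22, 8 were among the 11 called with all samples. Those added at the brightest probe set were Atp5g2 (1.54 ± 0.28, limma adjusted p = 0.021), Atp5g1 (1.03 ± 0.20, limma adjusted p = 0.024), Atp5o, a stalk subunit of complex V (0.93 ± 0.21, limma adjusted p = 0.034), the complex I factor Ndufaf3 (0.90 ± 0.21, limma adjusted p = 0.036), Uqcrc1 (0.85 ± 0.21, limma adjusted p = 0.044) and Sdhb (0.73 ± 0.18, limma adjusted p = 0.043). The brightest probe sets of Uqcrc2, Cox7a2l and Ndufaf2 were not called in this setting. The other probe set of Uqcrc2, which changed by 0.59 with all samples, was then called higher (0.79 ± 0.18, limma adjusted p = 0.034). The fall of Uqcrc2 with all samples was at its brightest probe set. Another probe set of Atp5g1 was lower without the 4 arrays by −1.53 ± 0.20 (limma adjusted p = 0.017), opposite to the brightest one.

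With 3′ minus 5′ control signal as a covariate, limma called 0 of the 185 probe sets and 0% of all probe sets at 18 against 2 months. The median SE of the 94 genes went from 0.18 to 0.52 in this fit. The change of Atp5b was 0.09 ± 0.53, of Ndufs1 0.11 ± 0.43, of Ndufs3 0.11 ± 0.43, of Ndufs4 0.39 ± 0.38 and of Sdhd 0.61 ± 0.40. For the genes that had fallen it was −0.26 ± 0.25 in Uqcrc2, −0.28 ± 0.34 in Cox7a2l and −0.63 ± 0.48 in Ndufaf2. The covariate did not overlap between 2 months and the later ages, so this fit parts it from age only through its spread within an age.

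Probe sets of 1 gene were compared as a check within the pathway. Of the 94 genes, 53 had several probe sets, at most 6. In 50 genes that could be compared, the brightest and the mean of the others had the same sign at 18 against 2 months in 30 (60.0%, against 51.6% of 7272 genes). In 38 genes with both types, plain probe sets (suffix _at) had the higher change in 27 (71.1%, against 62.6% of 3266 genes). The other suffixes mark probes shared by several transcripts of a gene or by several genes.

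**Figure D5:**
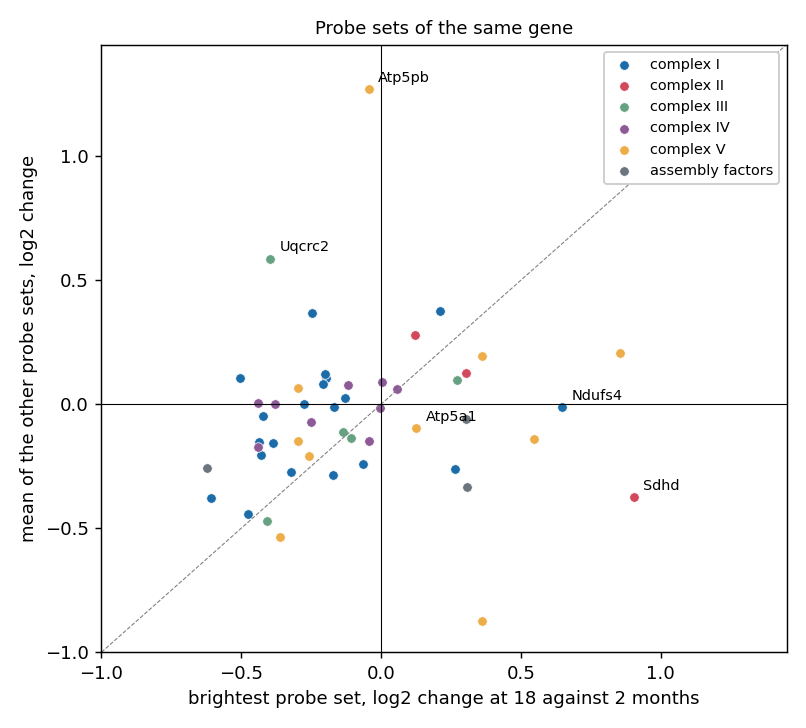
Log2 change at 18 against 2 months of the brightest probe set (horizontal axis) and the mean change of the other probe sets of the same gene (vertical axis), for 50 genes coloured by complex; the dashed line marks equal change. Sdhd lies at 0.91 and −0.37, Uqcrc2 at −0.40 and 0.59, and Atp5pb at −0.04 and 1.27, and 30 genes have the same sign on both axes.

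Genes of the pathway outside the rule were counted from a list of 74, of which 67 were measured (1 of them, Atp5md, is also a member). At 18 against 2 months 8 were higher (11.9%, against 5.77% of all genes) and 2 lower (2.99%, against 3.05%). At 10 against 2 months limma called 0 (1% of all genes higher and 0.484% lower). Of 28 assembly factors, 1 was lower (3.57%, against 3.05% of all genes) and 5 were higher (17.9%, against 5.77%). They were Nubpl, which inserts iron-sulphur clusters in complex I (0.54 ± 0.12, limma adjusted p = 0.024), Lrpprc, which stabilises mitochondrial mRNA (0.88 ± 0.24, limma adjusted p = 0.044), the complex V factors Atpaf2 (0.71 ± 0.14, limma adjusted p = 0.013) and Tmem70 (0.62 ± 0.16, limma adjusted p = 0.035), and Hccs, which attaches haem to cytochromes (0.89 ± 0.24, limma adjusted p = 0.048). Cox17, a copper chaperone of complex IV, was lower (−0.55 ± 0.15, limma adjusted p = 0.046).

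Of 18 regulators of mitochondrial genes, 2 rose (11.1%, against 5.77% of all genes) and 0 fell (3.05% of all). Tfam, which packages and transcribes mitochondrial DNA, rose by 0.92 ± 0.18, from 8.28 ± 0.44 (SD, n = 3) at 2 months to 9.20 ± 0.08 (SD, n = 4) at 18 months (limma adjusted p = 0.015). Polg, the mitochondrial DNA polymerase, rose by 0.50 ± 0.13 (limma adjusted p = 0.041). Of 6 carriers and pores, 1 rose (16.7%, against 5.77% of all genes). It was Vdac2, a channel of the outer membrane, with a change of 0.54 ± 0.13 (limma adjusted p = 0.026). Of 8 genes of coenzyme Q synthesis, 1 was lower (12.5%, against 3.05% of all genes). It was Coq5, a methyltransferase, with a change of −0.43 ± 0.12 (limma adjusted p = 0.045). None of the 7 measured electron carriers and further subunits was called. All calls of these lists are at the brightest probe set with all samples. With the 3′ minus 5′ covariate 0% of all probe sets were called, so none of these calls remained.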

How the data were processed

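VTA RNA was labelled in a two-cycle protocol from 50 ng per array. The authors made the deposited log2 values of each probe set with RMA, which summarises and quantile-normalises the probes. RMA forces the arrays to one distribution, so a shift shared by most genes is not seen. Limma 3.4.5 also stands in the submitters' processing notes. Scanner files were not used here. Arrays have no read depth, so their number limits the precision.

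Probe sets were named through the platform annotation (34945 with 1 gene, 932 with several, 9160 with none), and 10 that list a member with another gene were left out. All 94 symbols matched the reference gene table. After the 64 control probe sets were left out, all ages were fitted together in limma 3.58.1 (R 4.3.3: lmFit, contrasts.fit, eBayes), with Benjamini-Hochberg adjustment over 45037 probe sets. Calls needed an adjusted p under 0.05 and over 1.3-fold, the study's thresholds. The fit was tested on simulated data. Tables were handled in Python 3.11.15, pandas 2.3.3 and SciPy 1.17.1. Genes named were the called genes at the brightest probe set (at most 12 a direction), main subunits and paired isoforms. Others are marked in the text or were found in the setting that added them. Probe sets of a named gene are given where called or opposite. The members and lists were chosen with earlier results of these data known. Alternatives covered the young arrays 3 and 4, a replicate block, centring, a filter on low values, the covariate, the variance model, the samples in the fit, the probe set type, the fold threshold, the probe set for a gene, the complex of Ndufa4, and each array left out in turn.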

Additional observations from a re-analysis of the deposited data

Results flagged for a closer look

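Of 68 groups of 4 samples examined (the named genes and the complexes at 10 and 18 months), 5 held a sample far from the others of its age, measured as its gap to the nearest sample divided by the whole range. Chance alone gives such a sample in about 1 of 20 groups, and 5 of 68 is not far above that share. The groups are not independent, since they share samples and since Atp5g1 and Atp5g2 are among the complex V genes. At 10 months the sample far from the others was array 3 in every case. In Atp5g1 the array had 9.36 against 10.82 to 11.00 (ratio 0.893), and in Atp5g2 8.86 against 10.12 to 10.35 (ratio 0.845). In the mean deviation of complex III genes it had −0.56 against 0.24 to 0.36 (ratio 0.864), and in that of complex V genes −0.43 against 0.20 to 0.31 (ratio 0.861). At 18 months the value of Ndufaf2 on array 1 was 8.17, against 8.65 to 8.69 on the others (ratio 0.933).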

How the results depend on the processing

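Of the 11 probe sets called at 18 against 2 months, 0 remained with the covariate. Leaving out 1 array gave from 1 (without young array 1) to 19 (without array 3 at 10 months). The count was 6 without array 2 or array 3 at 18 months. Without the 4 arrays on the positive side of the first component, chosen after seeing the data, it was 22. Of these, higher calls (8) became 0 with the covariate (0% of all) and 20 without the 4 arrays (4.03% of all), and went from 1 to 10 when 1 array was left out. Lower calls (3, where 2.91% of all probe sets were lower) became 6 with 12 separate arrays (4.06% of all), 0 with centred arrays (2.06%, where 8 were higher), 0 with the covariate (0%), 1 with trend and robust variance (2.56%) and 8 with only both ages in the fit (3.34%), and went from 0 to 9 when 1 array was left out. The 1 call at 10 against 2 months (0.837% of all higher) became 2 with 12 separate arrays (1.31% of all). The count was 0 with the covariate (0% of all higher), trend and robust variance (0.295%), only both ages in the fit (0%), or without the 4 arrays (0.00222%). When 1 array was left out, the count went from 0 to 3 (0.00222% to 1.4% of all).

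Replicate numbers did not pair the arrays: the deviations of 12 same-numbered pairs correlated from −0.61 to 0.43, with 4 above 0.1. With the replicate block and 12 separate arrays, 10 probe sets were called at 18 against 2 months, all among the 11. Of these, 8 were higher (4.32%, against 3.45% of all probe sets) and 2 lower (1.08%, against 2.2%). At 10 against 2 months 0 were called in this setting, where Sdhd had a limma adjusted p of 0.080 and 0.00444% of all probe sets were higher.

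The median of complex II (0.40 at 10 and 0.41 at 18 months) was 0.19 and 0.24 with the mean of all probe sets, 0.17 and 0.15 with the covariate and 0.55 at both ages without _s_at and _x_at probe sets. Without the 4 arrays it was 0.59 at 18 months. Leaving out 1 array gave from 0.32 to 0.46 at 10 and from 0.32 to 0.47 at 18 months. The median of complex III at 10 months (0.07) went from −0.063 to 0.46 (without array 3 at 10 months), and at 18 months (−0.12) it was 0.25 without the 4 arrays. Uqcrc2 turned to 0.10 ± 0.10 with the mean of its probe sets. Of the called genes at 18 months, Atp5b, Ndufs1 and Sdhd kept their call in 20 of 22 alternatives, Ndufs4 in 19, Ndufs3 and Uqcrc2 in 15, Ndufaf2 in 9 and Cox7a2l in 6, and Sdhd at 10 months in 8. Without young array 1, only Sdhd of the 11 remained called. At 18 against 10 months limma called 0 in all settings. The cause of these differences was not tested.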
